A study of Homo sapiens with 2 samples.

Results

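The liver X receptors and the sterol export genes of HEL cells were described in 9 genes of the 61806 in the count table. They were taken by symbol and comprise the receptors NR1H2 and NR1H3, their partner RXRA, the target genes ABCA1, ABCG1, MYLIP and LPCAT3, and the sterol-handling genes SOAT1 and OSBP. Genes of sterol synthesis were left out. HEL is an erythroleukemia line, carried here with the genotype label WT, and it was treated for 24 h with L1 at 1 µM or with 0.5% DMSO as vehicle. L1 is a derivative of 3,3′-diindolylmethane. The study sequenced mRNA from 1 library of each condition, to find the pathways that L1 alters in these cells. A bulk library cannot separate fewer cells of a type from less RNA per cell.

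The liver X receptors are nuclear receptors that bind oxysterols, the oxidised forms of cholesterol, and they work as pairs with a retinoid X receptor. Such a pair sits at repeats of a short half-site in target genes, with corepressors when no ligand is bound and with coactivators when one is. The best known targets move cholesterol out of the cell, slow its uptake and remodel membrane phospholipids. This branch works opposite to the SREBP2 branch, which raises sterol synthesis and uptake.

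All 9 genes passed the minimum of 10 counts in 1 or both libraries. Of these, 2 were at least 2-fold lower in the L1 library, against 4.83% of all genes kept, and 0 were at least 2-fold higher, against 7.12% of all genes kept. The 2 genes were ABCA1 and ABCG1, the exporters of cellular cholesterol. All 9 genes also had at least 100 counts in the higher library, where 2-fold differences were less common. Of the 12365 genes that did so, 361 were at least 2-fold lower and 387 at least 2-fold higher. The receptors NR1H2 and NR1H3, the ubiquitin ligase MYLIP, SOAT1 and OSBP had log2 ratios from -0.13 to 0.10, and RXRA and LPCAT3 were lower by less than 2-fold. Ratios of L1 over DMSO are given on the log2 scale after TMM scaling, a method that matches the libraries on the bulk of their genes, and brackets hold the 95% Clopper-Pearson interval of the split of the counts. With 1 library per condition no test was run, none of the differences has a replicate check, and the intervals cover counting error only. By this measure the interval lay below 0 for 5 of the 9 genes, where 28.6% of all genes kept did so, and above 0 for 0 of them, where 26.8% did so. The 4 largest of these differences, in ABCA1, ABCG1, RXRA and LPCAT3, kept their interval below 0 under all 3 other scalings, while that of OSBP includes 0 when scaled by total counts (-0.14 to 0.03) or by the upper quartile (-0.15 to 0.01). The intervals of SOAT1, NR1H2 and MYLIP include 0 with TMM, but not under every other scaling.

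ABCA1 is the gene with the largest difference, and its promoter is shown because the letters of the receptor pair's binding repeat are found in it. The sequences are the 250 bases before the start site in the RefSeq promoter table for GRCh38.p14, written 5′ to 3′ on the strand of the gene. The windows searched also held the 50 bases after the start, and 8 of the 9 genes had 1 or more windows, 12 windows in all. Those of MYLIP and LPCAT3, both of them targets of the receptors as well, are shown for comparison. Capitals mark a DR4 repeat, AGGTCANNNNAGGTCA with at most 2 mismatches in its 12 half-site bases, or an E-box, CACGTG.
ABCA1, chr9:104928156-104928405, minus strand: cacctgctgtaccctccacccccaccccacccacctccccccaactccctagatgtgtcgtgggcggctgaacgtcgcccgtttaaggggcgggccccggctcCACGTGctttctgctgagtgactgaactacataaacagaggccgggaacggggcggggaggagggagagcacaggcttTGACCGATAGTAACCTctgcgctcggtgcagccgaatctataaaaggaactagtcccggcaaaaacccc
MYLIP, chr6:16128836-16129085, plus strand: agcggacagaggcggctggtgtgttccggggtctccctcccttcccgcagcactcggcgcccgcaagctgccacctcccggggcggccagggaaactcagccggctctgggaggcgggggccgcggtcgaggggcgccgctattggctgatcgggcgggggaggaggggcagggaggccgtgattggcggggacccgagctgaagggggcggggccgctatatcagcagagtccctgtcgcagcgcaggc
LPCAT3, chr12:7018477-7018726, minus strand: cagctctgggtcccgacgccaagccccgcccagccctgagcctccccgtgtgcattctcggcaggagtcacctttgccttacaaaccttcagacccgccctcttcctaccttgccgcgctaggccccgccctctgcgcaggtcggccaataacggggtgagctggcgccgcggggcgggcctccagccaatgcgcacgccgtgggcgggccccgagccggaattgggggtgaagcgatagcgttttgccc

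The DR4 match in ABCA1, tgaccgatagtaacct, lies 69 to 54 bases before the start, reads as the repeat on the opposite strand and carries 2 mismatches. The E-box lies 147 to 142 bases before the start, so the pair of matches do not overlap. Both strands were searched in every window. ABCA1 was the only one of the 8 genes with a DR4 match or an E-box in its windows. The gene without a window was ABCG1, also at least 2-fold lower, so its promoter was not searched. Among all 35116 windows of the table, 822 (2.34%) held a DR4 match at this tolerance, 2548 (7.26%) held an E-box and 68 (0.194%) held both. A GC box, GGGCGG, was found in 10 of the 12 windows of these genes, with 1 or more in each of the 8 genes, and in 45.0% of all windows. Sequence outside the windows was not searched, so a match elsewhere in any of these genes would be missed. A match of letters describes the sequence, and binding was not measured. The relation of these matches to the ratios was not tested.

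The levels of the 9 genes were compared per length, in FPKM as deposited by the authors. LPCAT3 was the highest in both libraries and ABCA1 the lowest. In the DMSO library the order below LPCAT3 (21.1) was OSBP (16.8), NR1H2 (7.72), MYLIP (7.17), SOAT1 (5.25), RXRA (3.68), ABCG1 (3.07), NR1H3 (0.992) and ABCA1 (0.832). The L1 library kept this order of all 9 genes, but its range widened, since ABCA1 stood at 0.212 FPKM and LPCAT3 at 16.4 FPKM. Neighbours such as NR1H2 and MYLIP were close, at 7.72 and 7.17 FPKM in DMSO and at 7.25 and 6.53 FPKM in L1, and without replicates their order cannot be set against a spread.

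**Figure D1:**
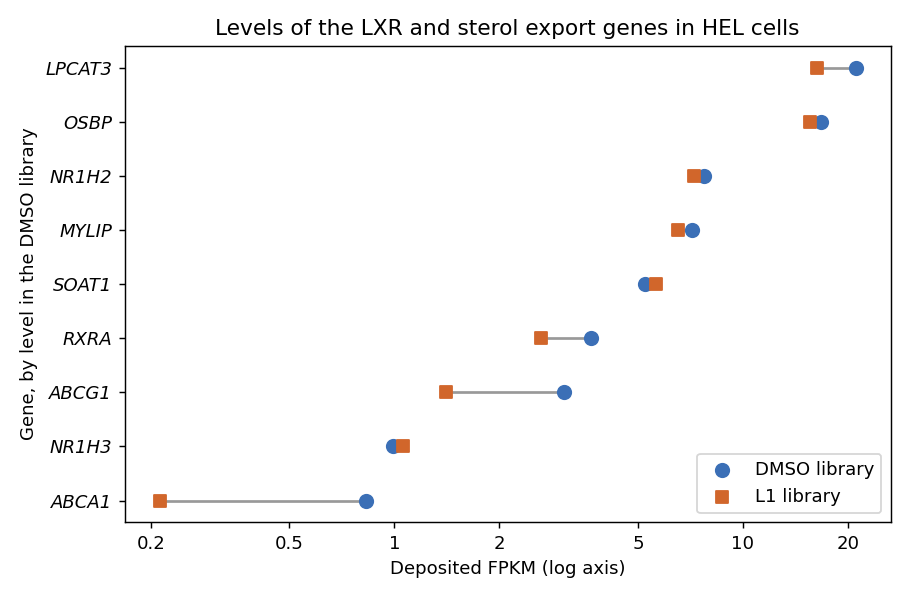
Deposited FPKM of the 9 genes on a log axis, with circles for the DMSO library and squares for the L1 library, 1 library each, joined by a line for each gene. The widest gaps are those of ABCA1, 0.832 against 0.212, and ABCG1, 3.07 against 1.41, while both marks of NR1H2, NR1H3, SOAT1 and OSBP nearly touch.

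Among the receptors, NR1H2 encodes LXRβ, the form found in most tissues (ENSG00000131408, chromosome 19, 50329653 to 50382982 in GENCODE release 29 on GRCh38). The DMSO library held 1310 counts and the L1 library 1062, and the log2 ratio was -0.09 (-0.21 to 0.03). NR1H3 encodes LXRα, which is best known in liver and macrophages and can induce its own gene (ENSG00000025434, chromosome 11, 47248300 to 47269032). Its counts were 143 in DMSO against 132 in L1, and the log2 ratio was 0.10 (-0.25 to 0.45). Both intervals include 0, and that of NR1H3 is the wider and rests on fewer counts. The mRNA of LXRβ was the more abundant of the pair in both libraries, as the FPKM of NR1H3 was 0.129 times that of NR1H2 in DMSO and 0.146 times in L1. The NR1H3 to NR1H2 ratio of counts was 1.14 times as high in L1 as in DMSO, with an exact interval from 0.879 to 1.47 that includes 1. Such a ratio inside each library does not depend on how the libraries are scaled. An exon of ACP2, on the opposite strand, overlaps NR1H3, and with its counts added the log2 ratio was 0.0063.

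RXRA encodes RXRα, the partner that the liver X receptors share with other nuclear receptors (ENSG00000186350, chromosome 9, 134317098 to 134440585). From 1412 counts in DMSO and 871 counts in L1 its log2 ratio was -0.48 (-0.61 to -0.36). RXRA was thus lower in the L1 library by more than its counting error and by less than 2-fold. Of the genes with at least 100 counts in the higher library, 11.4% had a ratio as low as that of RXRA or lower. Per RXRA count, NR1H2 was 1.31 times as high in L1 as in DMSO (1.17 to 1.48). RXRB, a second RXR gene, had 2311 and 1696 counts (log2 ratio -0.23, -0.32 to -0.14), and RXRG had 0 counts in both libraries.

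The list of receptors and coregulators held 18 genes, of which 16 were kept. Of these 1 passed 2-fold upward, against 7.12% of all genes kept, and 0 downward, against 4.83%. The same shares stand beside the 2-fold counts of the other lists, and in lists of this size they come to few genes. The median log2 ratio was -0.07, beside -0.0040 over all genes kept. The gene past 2-fold was NCOA3, a coactivator of nuclear receptors, with 711 and 1249 counts in the DMSO and L1 libraries (log2 ratio 1.03, 0.89 to 1.16). The corepressor NCOR1 had a log2 ratio of -0.03 (-0.09 to 0.04). Other nuclear receptors that pair with RXR were kept in 10 of 14 cases, with 0 past 2-fold in either direction and a median of -0.05. The lowest was VDR, the vitamin D receptor, with 658 and 375 counts (log2 ratio -0.60, -0.78 to -0.41). The highest was NR4A2, an orphan receptor induced early after stimulation, with 119 and 178 counts (log2 ratio 0.79, 0.45 to 1.14).

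ABCA1 encodes the transporter that loads cholesterol and phospholipid onto lipid-poor apolipoprotein A-I (ENSG00000165029, chromosome 9, 104781002 to 104928237). The DMSO library held 300 counts and the L1 library 66, and the log2 ratio was -1.97 (-2.38 to -1.58), or 3.92-fold lower in the L1 library. The whole interval lay past 2-fold, from 3.00-fold to 5.20-fold lower, and 1.93% of all genes kept had a whole interval at least 2-fold lower. Of the 12365 genes with at least 100 counts in the higher library, 71 (0.574%) had a ratio as low or lower. No exon of another gene overlaps ABCA1 in the annotation, and 0 of its 31-base words occur in transcripts of another gene. It was weakly expressed in both libraries.

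ABCG1 encodes a transporter that moves sterol toward mature high-density lipoprotein (ENSG00000160179, chromosome 21, 42199689 to 42297244). Its counts were 597 in DMSO against 236 in L1, and the log2 ratio was -1.13 (-1.35 to -0.91), or 2.18-fold lower in the L1 library. Its interval includes differences under 2-fold, and 2.32% of the genes with at least 100 counts had a ratio as low or lower. Its exons overlap no other gene, and 2.59% of its 31-base words are shared. Both exporters were thus lower, and ABCA1 more so, since the ABCG1 to ABCA1 ratio of counts was 1.80 times as high in L1 as in DMSO (1.31 to 2.48). The SOAT1 to ABCA1 ratio of counts was 4.21 times as high in L1 as in DMSO (3.17 to 5.66). The interval of SOAT1 itself includes 0 (log2 ratio 0.10, -0.02 to 0.22), so this ratio mostly restates the difference of ABCA1.

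**Figure D2:**
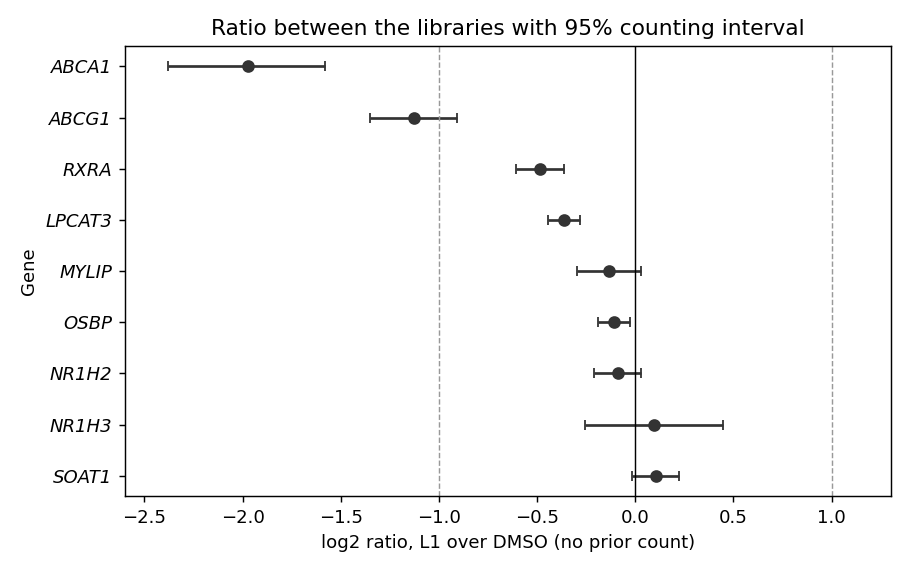
The log2 ratio of L1 over DMSO for the 9 genes without a prior count, with bars for the 95% counting interval, which does not include variation between cultures. Dashed lines mark 2-fold, and the bar of ABCA1, from -2.38 to -1.58, is the only one that lies wholly past a dashed line.

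The other exporters and acceptors lay closer to 0. The list held 11 genes, of which 6 were kept, and its 4 kept genes other than ABCA1 and ABCG1 had a median log2 ratio of -0.11, with 0 past 2-fold in either direction. ABCA2, a transporter of the endolysosomal membrane, had 1032 and 705 counts (log2 ratio -0.34, -0.48 to -0.20). ABCA7, a relative of ABCA1, had 882 and 852 counts (log2 ratio 0.16, 0.03 to 0.30). SCARB1, the high-density lipoprotein receptor, had 3767 and 3518 counts (log2 ratio 0.11, 0.05 to 0.18). APOE, the apolipoprotein that accepts cholesterol, was the lowest of the 4 at 32 and 16 counts, and its wide interval includes 0 (log2 ratio -0.79, -1.75 to 0.12). AC011481.3, which overlaps APOE on the same strand, had 7 and 16 counts. ABCA2, ABCA7, SCARB1 and APOE were named after their values were seen. ABCG4 had 6 counts in each library, too few for a comparison, and ABCG8 had 0 in both.

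MYLIP encodes IDOL, the ubiquitin ligase that sends lipoprotein receptors to the lysosome (ENSG00000007944, chromosome 6, 16129125 to 16148248). From 700 counts in DMSO and 550 counts in L1 its log2 ratio was -0.13 (-0.30 to 0.03), and the interval includes 0. In the list of lipoprotein receptors and IDOL's ubiquitin-conjugating partners, 10 of 11 genes were kept, with 1 at least 2-fold higher, 0 at least 2-fold lower and a median of 0.015. LRP8, a substrate of IDOL, had 4179 and 3172 counts (log2 ratio -0.18, -0.25 to -0.12). UBE2D4 was the gene past 2-fold, with 184 and 362 counts (log2 ratio 1.19, 0.93 to 1.45), while UBE2D1, UBE2D2 and UBE2D3 had log2 ratios of -0.07, -0.07 and 0.38.

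LPCAT3 encodes the acyltransferase that places polyunsaturated chains into membrane phospholipids (ENSG00000111684, chromosome 12, 6976186 to 7018510). The DMSO library held 3145 counts and the L1 library 2108, and the log2 ratio was -0.36 (-0.44 to -0.28). An exon of EMG1, a ribosome assembly gene on the opposite strand, overlaps LPCAT3 and itself had 2806 and 2503 counts. With both genes summed the log2 ratio was -0.15, and the sources used here do not say if reads were counted by strand. Among 7 acyltransferases of this kind, all kept, 0 passed 2-fold in either direction and the median was -0.22. MBOAT7, which acts on phosphatidylinositol, was the highest, with 1764 and 2568 counts (log2 ratio 0.75, 0.67 to 0.84). LPCAT4 was the lowest, with 885 and 525 counts (log2 ratio -0.54, -0.70 to -0.38).

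**Figure D3:**
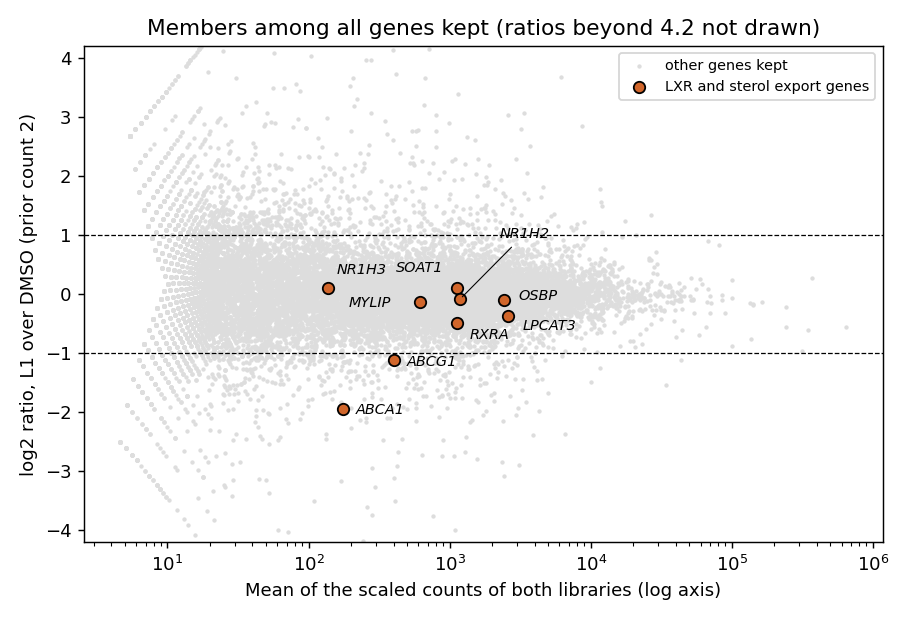
The log2 ratio of L1 over DMSO (prior count of 2) against the mean scaled count on a log axis, with 1 grey point for each of the 18123 genes kept and ringed points for the 9 genes, leaving out 66 genes with a ratio beyond 4.2 in either direction. ABCA1 and ABCG1 lie below the dashed line of a 2-fold lower level, and the other 7 lie between the dashed lines.

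Over the known targets of the liver X receptors, the libraries differed in both directions. The list held 19 genes, of which 15 were kept. ABCA1 and ABCG1 were the 2 genes at least 2-fold lower, 0 were at least 2-fold higher, and the median log2 ratio was 0.10. Over all genes kept, 26.8% had an interval above 0 and 28.6% had one below 0. Of the 10 kept targets that are not among the 9 genes, 0 were past 2-fold and the median was 0.18. Of these 10, 6 had an interval above 0 and 1 had an interval below 0. The gene below 0 was SREBF1, which encodes SREBP1, the regulator of fatty acid synthesis, with 2853 and 1526 counts (log2 ratio -0.69, -0.78 to -0.60). An exon of RAI1, on the opposite strand, overlaps SREBF1, and RAI1 had 2442 and 1442 counts. Genes on the opposite strand overlap RXRB, UBE2D4, LIPA, NPC1, NPC2 and TMEM97 in the same way. Other genes named here have such overlaps too, among them NCOA3, NCOR1, VDR, OSBPL1A, LRP8, UBE2D3, STARD4, RNF145, CYP11A1, HSD3B7, TAL1 and LYZ. SREBF1 was named after its values were seen, and the same holds for the genes that follow. SCD and FASN, enzymes of fatty acid desaturation and synthesis that respond to SREBP1 too, had log2 ratios of 0.51 (0.47 to 0.54) and 0.49 (0.45 to 0.52). CD36, APOC1, RNF145 and SMPDL3A had log2 ratios of 0.33, 0.23, 0.14 and 0.41. Transcripts of other genes hold 37.6% of the 31-base words of APOC1, 14.5% of RNF145 and 12.6% of SCD. For CD36, FASN and SMPDL3A the share was 1.15% or less.

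SOAT1 encodes the enzyme of the endoplasmic reticulum that esterifies cholesterol for storage (ENSG00000057252, chromosome 1, 179293714 to 179358680). Its counts were 1168 in DMSO against 1083 in L1, and the log2 ratio was 0.10 (-0.02 to 0.22), and transcripts of other genes hold 5.73% of its 31-base words. SOAT2, the form of liver and intestine, had 4 counts in DMSO and 0 in L1. Of 7 genes of sterol esterification and ester hydrolysis 5 were kept, with 0 past 2-fold in either direction and a median of 0.0034. NCEH1, a cholesteryl ester hydrolase, was the lowest, with 416 and 267 counts (log2 ratio -0.43, -0.65 to -0.20). LIPA, the lysosomal acid lipase, had 1242 and 1074 counts, a log2 ratio of 0.0034 (-0.12 to 0.12).

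OSBP encodes the oxysterol-binding protein, which carries cholesterol from the endoplasmic reticulum to the Golgi in exchange for a phosphoinositide (ENSG00000110048, chromosome 11, 59574398 to 59616144). From 2729 counts in DMSO and 2187 counts in L1 its log2 ratio was -0.11 (-0.19 to -0.02). The interval excludes 0 by a narrow margin. It includes 0 when scaled by total counts or by the upper quartile, and excludes 0 with DESeq2 size factors (-0.22 to -0.06). Of the 12 genes of its family, 11 were kept and 0 were past 2-fold in either direction, with a median of -0.06. OSBPL1A, a relative found at late endosomes, was the lowest, with 781 and 417 counts (log2 ratio -0.69, -0.87 to -0.52). OSBPL11 was the highest, with 501 and 599 counts (log2 ratio 0.47, 0.30 to 0.64).

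**Figure D4:**
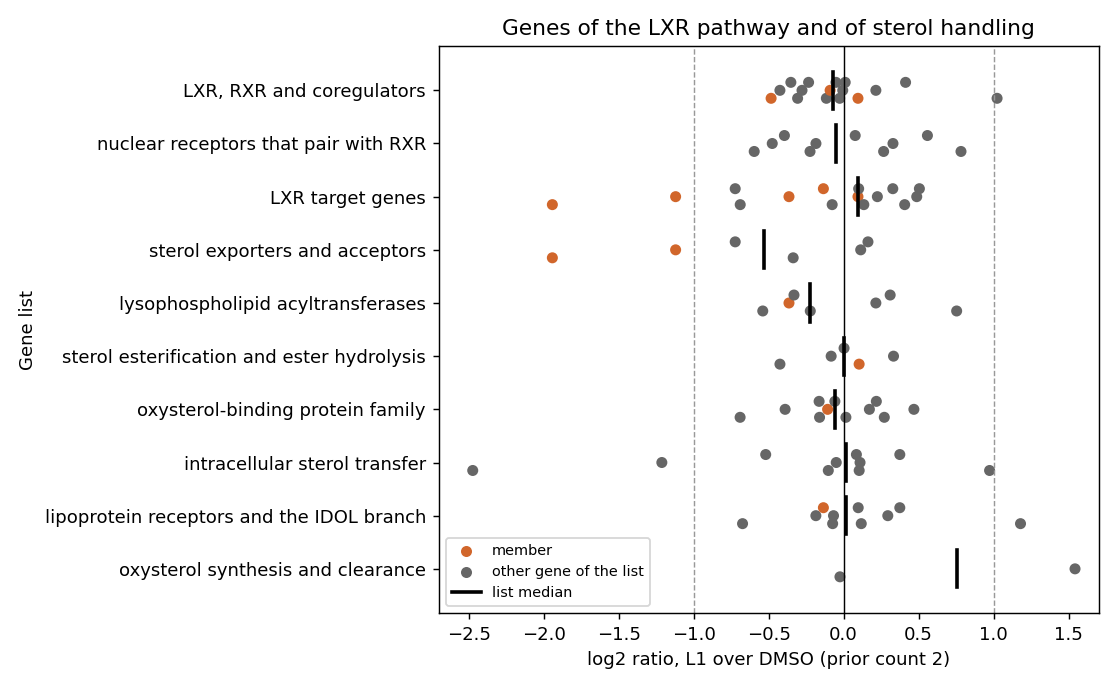
The log2 ratio of L1 over DMSO (prior count of 2) of every kept gene in 10 lists of the pathway and of sterol handling, 1 point per gene, with the 9 genes coloured, bars at the list medians and dashed lines at 2-fold. In the lists of targets and of exporters the points past the lower line are ABCA1 and ABCG1, and in the list of sterol transfer they are 2 genes outside the 9, SCARB2 and TMEM97.

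Genes that transfer sterol inside the cell held the only other list members at least 2-fold lower in the pathway, with 10 of 11 kept, 2 lower, 0 higher and a median of 0.018. SCARB2, which encodes the lysosomal membrane protein LIMP-2, had 621 and 95 counts (log2 ratio -2.50, -2.82 to -2.18). TMEM97, the sigma-2 receptor that binds the lysosomal cholesterol transporter NPC1, had 2027 and 754 counts (log2 ratio -1.21, -1.34 to -1.09). NPC1 itself had 437 and 407 counts (log2 ratio 0.11, -0.09 to 0.31), and NPC2, its soluble partner, had 535 and 430 counts (log2 ratio -0.10, -0.29 to 0.08). STARD4, a soluble sterol carrier, had 2056 and 2301 counts (log2 ratio 0.38, 0.29 to 0.46). STARD5, of the same family, was the highest of the list and just under 2-fold, with 68 and 117 counts (log2 ratio 1.00, 0.55 to 1.45), and IL16, which overlaps it on the opposite strand, had 4390 and 1802 counts. NPC1, NPC2, STARD4 and STARD5 were named after their values were seen.

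Most enzymes that make or clear oxysterols, the ligands of the receptors, were at or near 0 counts, with CYP11A1 and HSD3B7 as the exceptions. Of 10 genes these 2 were kept, which leaves no basis for a summary of the list. CH25H, CYP7B1, CYP39A1 and HSD11B1 had 0 counts in both libraries, and a count of 0 allows up to 3 counts, or 0.0921 CPM (counts scaled to the library total) in DMSO and 0.111 in L1. CYP27A1, the mitochondrial 27-hydroxylase, had 8 and 5 counts. CYP11A1, the side-chain cleavage enzyme, had 244 and 207 counts (2.26 and 2.22 FPKM, log2 ratio -0.02, -0.30 to 0.25). HSD3B7, an enzyme of bile acid synthesis, had 30 and 79 counts (log2 ratio 1.61, 0.99 to 2.27) and was named after its values were seen.

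Both libraries held the markers of an erythroid line. All 9 erythroid and megakaryocyte markers were detected, with summed levels of 2988 CPM in DMSO and 3607 in L1. The markers differed in both directions. The globin gene HBG1 was the highest, with 5620 and 16681 counts (log2 ratio 1.78), and shares 32.9% of its 31-base words with other transcripts. AC104389.5, which overlaps HBG1 on the same strand, had 11295 and 22951 counts. The factors TAL1 and KLF1 and the platelet glycoprotein gene GP9 had log2 ratios of -0.50, -0.08 and -0.37 and were named after their values were seen, as were GATA1 (0.09) and ITGA2B (0.03). The 7 macrophage and monocyte markers, checked because the exporters are abundant in macrophages, summed to 23.0 CPM in DMSO and 21.2 in L1. LYZ made up most of this (647 and 486 counts, log2 ratio -0.20), CD163 and MARCO were at 0 in both libraries, and CD14 had 0 and 5 counts. CSF1R had 36 and 2 counts (log2 ratio -3.96, -7.06 to -2.00). CD68 had 64 and 82 counts (log2 ratio 0.57, 0.08 to 1.07), but shares 77.3% of its 31-base words with other transcripts. AC016876.2, which overlaps CD68 on the same strand, had 654 and 409 counts. The macrophage and monocyte markers thus differed in both directions too, with that limit on CD68, and all but LYZ were named after their values were seen. The 6 lymphoid markers summed to 3.62 and 2.54 CPM, mostly CD79A (113 and 60 counts, log2 ratio -0.70), and CD3E, CD3D and MS4A1 were at 0 in both libraries. The part of these markers in the difference of ABCA1 and ABCG1 was not tested. Total counts were 32556872 in DMSO and 27135647 in L1.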

How the data were processed

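HEL cells given L1 or DMSO were compared with 1 library each. The submitters' processing notes name fastp, HISAT2 2.1.0, StringTie and the build hg38, while the annotation and the counting settings are not given in the sources used here. The authors deposited raw read counts for 61806 Ensembl genes and FPKM values, normalised to gene length and library size, for the 13924 genes above 1 CPM in both libraries. One row of the FPKM files that names no gene was left out.

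Counts were scaled over the whole table by TMM (edgeR 4.0.16, R 4.3.3), with ratios computed in Python 3.11.15. Single genes have no prior count. Calls across the 18123 genes with at least 10 counts in 1 or both libraries used a prior count of 2 and a 2-fold threshold. Exact 95% intervals and the limit of 3 counts for a count of 0 cover counting error only. No test was run. Scripts were tested on simulated libraries.

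The 9 genes and 13 other gene lists were chosen with earlier results of these data known. The genes named are the 9, the list genes whose whole interval is past 2-fold, and the 2 with the largest ratio in either direction in each list, all with at least 100 counts in the higher library. Other list genes are given for context and were named after their values were seen. Some genes of the lists, including ones this rule names, are not reported here. Positions, overlaps and shared 31-base words were taken from release 29 of GENCODE on GRCh38, in which 58254 of the identifiers were found. Alternatives covered scaling (DESeq2 1.42.0 included), FPKM, prior counts, filters, thresholds, gene types and overlapping genes.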

Additional observations from a re-analysis of the deposited data

How the results depend on the processing

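No paired analysis was possible because there was 1 library per condition. The 3 other scalings left all 27 values of the 9 genes inside their counting intervals, and moved the median of all genes by at most 0.049 on the log2 scale. In a count added after seeing the data, the interval lay below 0 for 4 of the 9 genes and above 0 for 1 with total counts or the upper quartile, and for 7 and 0 with DESeq2 size factors, against 5 and 0 with TMM. The gene above 0 was SOAT1, and NR1H2 and MYLIP lay below 0 only with DESeq2 size factors. The log2 ratio of ABCA1 moved to -0.60 with log2(FPKM + 1) and to -1.58 with log2(FPKM + 0.1), and that of ABCG1 moved to -0.76 with log2(FPKM + 1), because an added FPKM of this size is large beside their levels. LPCAT3 moved to -0.15 when summed with its overlapping gene on the opposite strand. No member has an overlapping gene on its own strand, so that alternative changed no value.

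The number of the 9 genes at least 2-fold lower, 2, became 0 with log2(FPKM + 1), 1 at 3-fold and 1 with the whole interval past 2-fold. It was 2 under the other 11 alternatives, and the number at least 2-fold higher was 0 under all of them. Over all genes, 1290 higher and 876 lower became 199 and 153 with log2(FPKM + 1), 348 and 298 with log2(FPKM + 0.1), 3544 and 1811 with no filter, 387 and 361 at 100 counts, 694 and 491 at 10 counts in both libraries, 2506 and 2065 at 1.5-fold, 566 and 345 at 3-fold, 547 and 350 with the whole interval past 2-fold, and 688 and 502 in protein-coding genes. Fewer genes enter under the filters, the FPKM values and the gene type.

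Of 84 values of list medians, 79 stayed between the median lower and the median upper bound of their genes. The other 5 changed sign, in lists of 2 and 3 kept genes. Oxysterol synthesis and clearance went from 0.76 to -0.017 and -0.023 with the FPKM values and to -0.024 at 100 counts, and the macrophage markers went from -0.20 to 0.060 and 0.16 with the FPKM values. Medians near 0 also changed sign inside those bounds. With DESeq2 size factors, log2(FPKM + 1), log2(FPKM + 0.1) and at least 100 counts, sterol esterification went from 0.0034 to -0.028, -0.027, -0.038 and -0.040, sterol transfer from 0.018 to -0.012, -0.044, -0.048 and -0.049, and the lipoprotein receptors from 0.015 to -0.016, -0.057, -0.067 and -0.070. Depth limits ABCA1 in L1, with 66 counts, and NR1H3.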
